A study of Mus musculus with 6 samples.

Results

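MicroRNA (miRNA) signals were compared between the ventricles of old and of middle-aged male C57BL/6J mice that had both been on calorie restriction (CR). Middle-aged CR mice started the diet at 12 months and were 15 months old at the end of it, and old CR mice started at 19 months and were 22 months old. In both groups the restriction was raised in steps to 40% and the diet lasted 12 weeks. The study also held mice fed ad libitum (AL) at these ages, and young AL and CR mice that started at 3 months and ended at 6 months. Each of the 6 groups was 1 array of 1 µg of RNA from pooled ventricular tissue, so a ratio between arrays has no replicate error, no p-value was computed, and a difference between 2 arrays cannot be told apart from one between 2 pools or 2 hybridizations. The members were the features named for mouse miRNAs with a value above 0 on both CR arrays, which were 681 of 1114 such features and of 3535 features in all. A further 14 had a value on the middle-aged CR array alone, 52 on the old CR array alone and 367 on neither. None of these 14 and 52 was above the detection floor, and their highest signals were 0.0199 and 0.132. The question was which miRNAs differ between middle age and old age in hearts that are both under restriction.

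MiRNAs are short RNAs that guide the Argonaute proteins to messenger RNAs and lower their stability and translation. A target is found mainly through the seed, bases 2 to 8 of the mature miRNA, so miRNAs with the same seed form a family with overlapping targets. Each hairpin precursor can give a 5p and a 3p mature form, and hairpins that lie close together are often made from 1 transcript. Heart muscle makes miR-1, miR-133, miR-208a and miR-499 in large amounts, vessels add miR-126 from endothelium and miR-143 and miR-145 from smooth muscle, and blood left in the tissue adds miR-451a and miR-144 from red cells. Because the tissue is a mixture, fewer cells of a type and less miRNA per cell cannot be told apart here.

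Values were normalized intensities of the Hy3 dye on miRCURY LNA arrays, in which every value of an array was a whole multiple of 1 step. The step was 0.000797 on the middle-aged CR array and 0.000762 on the old CR array. The detection floor of an array, the 95th percentile of its features for viral miRNAs, was 1.29 on the middle-aged CR array (from 18 features) and 0.960 on the old CR array (from 19). Of the members, 141 were above the floor on both arrays, 53 on 1 array and 487 on neither. A miRNA was called higher or lower at a ratio of 1.5-fold or more, which is 0.585 on the log2 scale. The bright spike-in features, synthetic RNAs added to each sample, were above the floor on both arrays in 25 cases, with a median log2 ratio of old over middle-aged CR of -0.16, a range of -0.44 to 0.39 and no call. The 2 CR arrays were alike in their spike-in pattern (Pearson r = 0.979 across 45 features), and across 415 miRNAs r was 0.960; these points share the arrays and the probes and are not independent replicates.

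The mature sequences below are those of RefSeq (GRCm38.p6), 5′ to 3′, with the seed in capitals. Of the 681 members 547 matched an entry, and so did 105 of the 141 above the floor on both arrays. The first set is shown because the let-7 family, 1 seed in 9 measured miRNAs, held the lowest log2 ratio above the floor and 5 of the 36 miRNAs called lower there.
let-7a-5p: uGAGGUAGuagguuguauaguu
let-7b-5p: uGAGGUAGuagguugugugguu
let-7c-5p: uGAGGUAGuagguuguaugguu
let-7d-5p: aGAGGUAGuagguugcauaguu
let-7e-5p: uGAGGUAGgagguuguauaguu
let-7f-5p: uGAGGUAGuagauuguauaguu
let-7g-5p: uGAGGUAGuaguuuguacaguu
let-7i-5p: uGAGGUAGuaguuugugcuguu
miR-98-5p: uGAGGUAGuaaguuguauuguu

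The second set holds miRNAs of muscle, endothelium and the miR-30 and miR-26 families, some called lower and some within 1.5-fold, so that members of 1 family can be set side by side, and miR-181a-5p.
miR-208a-3p: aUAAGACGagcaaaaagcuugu
miR-499-5p: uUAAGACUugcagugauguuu
miR-133b-3p: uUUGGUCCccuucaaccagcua
miR-126a-3p: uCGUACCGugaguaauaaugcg
miR-30a-5p: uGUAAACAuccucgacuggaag
miR-30e-5p: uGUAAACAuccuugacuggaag
miR-30c-5p: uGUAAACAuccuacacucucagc
miR-26a-5p: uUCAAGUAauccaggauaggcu
miR-26b-5p: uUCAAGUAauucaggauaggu
miR-181a-5p: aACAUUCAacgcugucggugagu

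The third set holds the 4 miRNAs called higher above the floor, 2 members of the miR-467 and miR-669 group, and the 3 members of the miR-15 family whose signals were nearly equal on the 2 arrays.
miR-3473a: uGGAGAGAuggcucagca
miR-3473b: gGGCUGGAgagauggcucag
miR-691: aUUCCUGAagagaggcagaaaa
miR-300-5p: uUGAAGAGagguuauccuuugu
miR-467f: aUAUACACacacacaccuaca
miR-669n: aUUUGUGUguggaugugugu
miR-15a-5p: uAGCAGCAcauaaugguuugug
miR-16-5p: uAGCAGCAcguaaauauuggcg
miR-195a-5p: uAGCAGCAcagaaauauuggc

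Over all 681 members, 167 were higher on the old CR array (24.5%) and 119 were lower (17.5%), with a median log2 ratio of 0.05. Most of these calls lay at weak signal: 151 of the 167 higher and 82 of the 119 lower miRNAs were below the floor on both arrays, and 91 of the 167 and 40 of the 119 had under 100 steps of signal on 1 array. The largest ratio of all, that of miR-138-1-3p with a log2 ratio of 4.04, was 4 steps against 69, and the lowest, that of miR-292a-3p with -2.98, was 106 steps against 14. Both were chosen after their values were seen, and ratios of this kind are not described further. Among the 141 miRNAs above the floor on both arrays the picture was turned round. There 4 were called higher (2.84%) and 36 lower (25.5%), 103 of 141 ratios were below 0, and the median log2 ratio was -0.30 with an SD of 0.42 across miRNAs. The floor was higher on the middle-aged CR array (1.29 against 0.960), so this filter admitted falls more readily than rises. The 53 miRNAs above the floor on 1 array went the other way. Of these 12 were called higher and 1 lower, 43 ratios were above 0, and the median was 0.37. The bright spike-ins shared part of the shift below 0 among the 141, with their median of -0.16. Of the 141 miRNAs, 55 lay below the lowest spike-in ratio, 11 above the highest and 75 within the spike-in range. Small nuclear, nucleolar and ribosomal RNA controls above the floor, 7 in all, had a median of -0.04 and a range of -0.37 to 0.20. The U6 control had a signal of 11.0 on the middle-aged CR array and 10.7 on the old CR array.

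**Figure D1:**
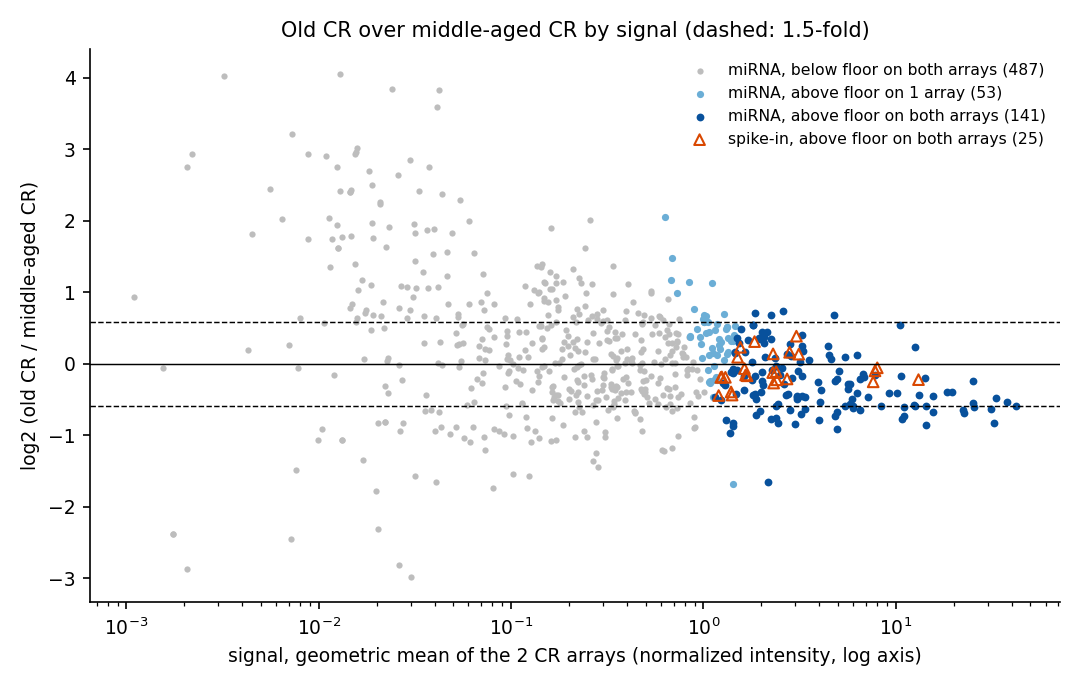
Log2 ratio of old CR over middle-aged CR for the 681 members and the 25 bright spike-ins, against the geometric mean signal of the 2 arrays on a log axis, with 1 point a feature and dashed lines at 1.5-fold. Ratios of 4.04 and -2.98 occur only at weak signal, while the 141 miRNAs above the floor on both arrays lie between -1.65 and 0.74 around a median of -0.30.

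Among these 141 miRNAs the lower ratios went with the brighter signals (Pearson r = -0.31 and Spearman rho = -0.31 between mean log2 signal and log2 ratio, as a description across miRNAs that share both arrays). The 10 members of highest mean signal were miR-126a-3p, miR-5100, miR-3963, miR-133b-3p, miR-208a-3p, miR-491-3p, miR-22-3p, miR-143-3p, miR-1a-3p and miR-133a-3p, and they were the 10 highest on each of the 2 arrays. Signal depends on the probe, so this is no order of abundance. All 10 were lower on the old CR array, from a log2 ratio of -0.83 for miR-208a-3p to -0.24 for miR-491-3p, and 6 passed 1.5-fold. None of these 6 calls was kept after quantile or cyclic loess normalization, which even out the signal distributions of the 2 arrays. After quantile normalization 6 of the 10 turned above 0, and after cyclic loess 7, there up to 0.40 for miR-491-3p. MiR-126a-3p, miR-5100, miR-3963, miR-133b-3p, miR-491-3p and miR-22-3p turned after both, and miR-143-3p after cyclic loess alone.

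The let-7 family keeps differentiated cells from returning to earlier growth programmes and represses Ras, Hmga2 and insulin signalling genes. On the array it had 20 features, of which 17 were members and 9 were above the floor on both arrays. All 9 had ratios below 0, with a median of -0.61 against -0.30 for all 141, and 5 were called lower, beside 25.5% of the 141. Over all 17 members 2 ratios were above 0, both called higher, and 8 were called lower. The shares over all 681 members were 24.5% and 17.5%. Signals of let-7a-5p were 3.84 on the middle-aged CR array and 1.22 on the old CR array, a 3.14-fold difference (log2 ratio -1.65) and the lowest ratio of all miRNAs above the floor on both. On the other arrays let-7a-5p stood at 1.77 (young AL), 1.13 (young CR), 4.51 (middle-aged AL) and 2.13 (old AL), so both 15-month arrays were above the arrays of the other ages on either diet. Low young signal was shared by other lists, though not by all. Summed muscle signals were 90.3 and 56.4 on the young AL and CR arrays, against 197 and 159 at 15 months. The young arrays also differed in spike-in pattern from the 2 CR arrays compared here (r of 0.886 to 0.939). Signals of let-7i-5p were 3.11 and 1.84 on the 2 CR arrays (log2 ratio -0.76). Those of let-7f-5p were 2.41 and 1.46 (-0.72). The other calls were let-7c-5p, from 4.19 to 2.70 (-0.63), and let-7b-5p, from 7.41 to 4.84 (-0.61). The remaining 4 members, miR-98-5p (-0.56), let-7d-5p (-0.37), let-7g-5p (-0.21) and let-7e-5p (-0.09), did not pass 1.5-fold.

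These members carry the same seed and differ behind it, or at the first base. Compared with let-7a-5p, with positions counted from 1 at the 5′ end, let-7c-5p differs only by A19G, let-7f-5p only by G12A and let-7e-5p only by U9G. The log2 ratios of these 4 were -1.65, -0.63, -0.72 and -0.09. Cross-binding of these probes was not tested, so their signals are uncertain as separate measurements. The hairpins of let-7a-1, let-7f-1 and let-7d lie together on mouse chromosome 13 (GRCm38.p6, chr13:48536024-48538260, minus strand), and the mature forms read from there and above the floor had log2 ratios of -1.65, -0.72 and -0.37. Those of let-7c-2 and let-7b lie at chr15:85706616-85707400 (plus strand), and their mature forms stood close to each other at -0.63 and -0.61. A further let-7a hairpin, let-7a-2, lies on chromosome 9, and copies of let-7f and let-7c elsewhere in the genome give the same mature sequence. No signal can thus be assigned to 1 hairpin.

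**Figure D2:**
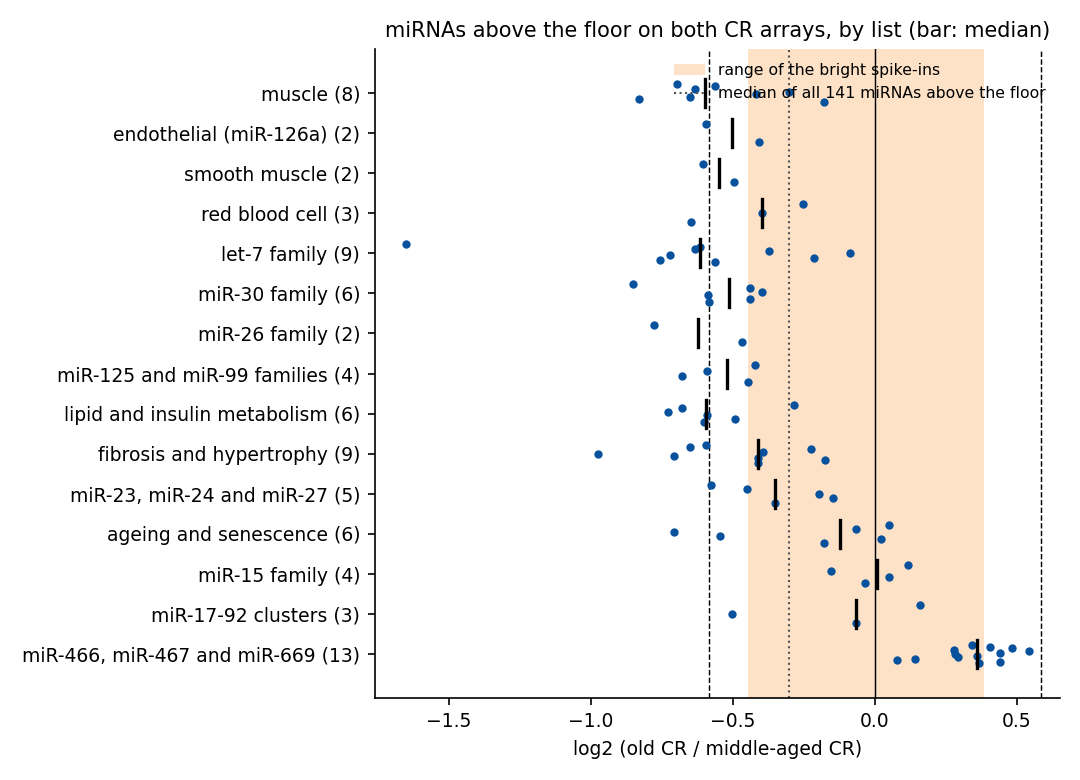
Log2 ratio of old CR over middle-aged CR for miRNAs above the floor on both CR arrays, grouped by list with the number of such miRNAs in brackets; the black bar is the list median, the band is the range of the bright spike-ins (-0.44 to 0.39), the dotted line is the median of all 141 (-0.30) and the dashed lines are 1.5-fold. The muscle, let-7 and miR-26 medians are -0.60, -0.61 and -0.62, the miR-15 family sits at 0.01 and the miR-466, miR-467 and miR-669 group at 0.36.

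Muscle miRNAs made up much of the bright signal. The list had 17 features, 14 of them members and 8 above the floor on both arrays, where all 8 ratios were below 0, the median was -0.60 and 4 were called lower, beside 103 of 141 below 0 and 36 called lower (25.5%) among all miRNAs above the floor. Over all 14 members 4 ratios were above 0, and 5 were called lower and 2 higher, beside 17.5% and 24.5% of the 681 members. The 2 higher were miR-208b-3p (1.37) and miR-206-3p (0.87), named after their values were seen and neither above the floor on both arrays. No value was given on either array for miR-1b-3p, miR-133b-5p and miR-208b-5p. Summed over the 11 features that all 6 arrays measured, the signal was 159 on the middle-aged CR array and 101 on the old CR array, against 197 and 142 on the AL arrays of the same ages. MiR-208a-3p, which is made from an intron of the alpha myosin heavy chain gene Myh6 and takes part in the stress response of heart muscle, stood at 43.3 and 24.3 on the CR arrays (1.78-fold lower, log2 ratio -0.83). Its signals were 38.6 and 28.7 on the middle-aged and old AL arrays and 19.4 and 10.4 on the young AL and CR arrays. The old CR signal was thus below the other 15-month and 22-month arrays and above both young arrays, which differ from the CR arrays compared here in their spike-in pattern too (r of 0.886 to 0.939, against 0.979 between these 2). MiR-133a-3p and miR-133b-3p restrain growth of heart muscle cells and their switch to a proliferating state. MiR-133a-3p stood at 28.8 and 17.8 (-0.70), and miR-133b-3p at 39.0 and 25.1 (-0.63). MiR-1a-3p, a regulator of muscle differentiation and of conduction genes, stood at 28.1 and 17.9 (-0.65). After quantile and cyclic loess normalization none of these 4 was called: the log2 ratios were -0.11 and -0.13 for miR-208a-3p, -0.09 and -0.09 for miR-133a-3p, 0.11 and 0.05 for miR-133b-3p, and -0.02 and -0.04 for miR-1a-3p. MiR-499-5p, made from an intron of the slow myosin gene Myh7b, had signals of 7.23 and 6.39 and a ratio nearer to 0 (-0.18, and 0.20 and 0.15 after the same normalizations). The passenger arms miR-133a-5p (-0.56), miR-1a-2-5p (-0.42) and miR-1a-1-5p (-0.30) were also lower without a call.

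Endothelial and smooth muscle miRNAs moved by about as much. MiR-126a-3p, made from an intron of Egfl7 and needed for vessel integrity, was the brightest member with 51.6 on the middle-aged CR array and 34.2 on the old CR array (1.51-fold lower, -0.59). On the AL arrays it was nearly equal, with 52.9 at 15 months and 52.4 at 22 months. The sign of its CR ratio depended on the scaling, at 0.11 after quantile and 0.17 after cyclic loess normalization. Its other arm, miR-126a-5p, stood at 10.7 and 8.03 (-0.41). Among the smooth muscle miRNAs, miR-143-3p stood at 31.3 and 20.6 (-0.60, but 0.03 after cyclic loess normalization), and the feature shared by miR-145a-5p and miR-145b at 7.04 and 4.99 (-0.50). Summed signals of the endothelial list were 62.2 and 42.2, and those of the smooth muscle list 39.6 and 26.3, with a value for all 2 and all 4 features on both arrays.

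Blood cell miRNAs were present at lower signal. MiR-451a, which is processed by Argonaute 2 in red cell precursors, stood at 22.6 and 17.1 (-0.40). MiR-144-3p of the same transcript (chr11:78073010-78073207, plus strand) stood at 4.28 and 3.60 (-0.25), and the feature for miR-486a-5p and miR-486b-5p at 3.52 and 2.25 (-0.65, called lower). All 6 red cell features were members, with summed signals of 30.6 and 23.2. Over these 6 the median log2 ratio was -0.10. Of their ratios 3 were above 0, up to 0.45, none of them above the floor on both arrays. Of the white cell list 10 of 14 features were members, with summed signals of 9.34 and 8.62, and miR-142a-3p, found in all blood lineages, was the only one above the floor on both arrays, at 5.22 and 4.42 (-0.24). The feature stood at 19.7 on the middle-aged AL array and at 5.60 on the old AL array. Over the 10 white cell members the median log2 ratio was -0.05, and 4 ratios were above 0, up to 0.41. Features for miR-146a-3p, miR-146b-3p, miR-150-3p and miR-223-5p had no value on either CR array. The part of blood in the differences above was not tested. Markers of liver, neurons, epithelia and endocrine cells had 38 features, 23 of them members and none above the floor on both arrays; the liver miRNA miR-122-5p and the epithelial miR-141-3p and miR-200a-3p had no value on either.

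The miR-30 family, which is abundant in heart muscle cells and restrains the matrix growth factor Ctgf and autophagy genes, had 11 members, all with ratios below 0. Above the floor there were 6, with a median of -0.51 and 2 calls, beside the 25.5% called lower among all 141. Signals of miR-30a-5p were 19.2 on the middle-aged CR array and 10.6 on the old CR array (1.80-fold lower, -0.85), and 17.6 and 15.0 on the AL arrays of the same ages. Those of miR-30d-5p were 7.31 and 4.87, a ratio only just inside the threshold (-0.59). The 5p forms of miR-30e (17.5 and 11.7, -0.58) and miR-30c (21.1 and 16.02, -0.40) did not pass it. MiR-30e-5p was the member just outside, at 1.499-fold, and differs from miR-30a-5p only by C13U. The hairpins of miR-30e and miR-30c-1 lie at chr4:120769546-120772681 (minus strand), within the gene of the transcription factor subunit Nfyc, and 3 forms read from there above the floor had log2 ratios of -0.58, -0.44 (miR-30e-3p) and -0.40.

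In the miR-26 family, which acts on proteins of the cell cycle, miR-26a-5p stood at 2.92 and 1.70 (-0.78, called lower) and miR-26b-5p at 8.41 and 6.09 (-0.47). In the miR-125 and miR-99 families 4 miRNAs were above the floor, with a median of -0.52. MiR-125b-5p, with targets in cell death and innate immunity, stood at 19.6 and 12.3 (-0.68), and miR-125a-5p at 6.71 and 4.45 (-0.59). MiR-99a-5p and miR-100-5p, which repress the growth kinase mTOR, had ratios of -0.45 and -0.42 and no call; they differ by 1 base, U16A. MiR-351-5p, with the seed of miR-125 and chosen after its values were seen, stood at 2.56 on the middle-aged CR array and at 0.797, below the floor, on the old CR array (-1.68).

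Metabolic miRNAs were represented by the miR-378 and miR-103/107 families, the former with miR-378a made from an intron of the coactivator gene Ppargc1b and the latter known in mice for lowering insulin sensitivity. The list of lipid and insulin metabolism had 15 features, 10 of them members and 6 above the floor on both arrays, all below 0, with a median of -0.60 and 4 calls (25.5% among all 141). Over all 10 members 2 ratios were above 0, up to 0.07, and 5 were called lower, beside 17.5% of the 681 members. MiR-378a-3p stood at 14.2 on the middle-aged CR array and 8.55 on the old CR array (1.66-fold lower, -0.73). MiR-378b was at 13.5 and 8.93 (-0.60), and the feature that names miR-378a-3p, miR-378b and miR-378c together at 10.3 and 6.84 (-0.59). These features share most of their sequence, so they may read the same RNA. MiR-107-3p stood at 6.25 and 3.91 (-0.68) and miR-103-3p at 6.36 and 5.23 (-0.28), although both differ only by G22C. Their AL signals were 17.8 and 5.09 for miR-107-3p and 18.7 and 6.03 for miR-103-3p.

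MiRNAs tied to fibrosis and hypertrophy had 18 members, 9 of them above the floor on both arrays and all below 0, with a median of -0.41 and 4 calls (25.5% among all 141). Over all 18 members 6 ratios were above 0, up to 1.17. Called lower were 4 and higher 3, beside 17.5% and 24.5% of the 681 members. MiR-21a-5p, which promotes fibroblast survival and matrix deposition, stood at 4.10 and 2.51 on the CR arrays (-0.71), against 7.98 and 2.35 on the AL arrays. MiR-199b-5p, which rises in hypertrophy and targets the kinase Dyrk1a, stood at 1.93 and 0.983 (-0.97); the latter lies just above the floor of 0.960. MiR-101a-3p, which restrains Fos and fibroblast activation, stood at 15.5 and 10.2 (-0.59), and the feature it shares with miR-101c at 8.14 and 5.18 (-0.65). The miR-29 family represses collagens and other matrix genes, and is thus of the opposite role to miR-21. Its 3 forms miR-29a-3p (11.7 and 8.80, -0.41), miR-29c-3p (7.27 and 5.46, -0.41) and miR-29b-3p (11.3 and 10.0, -0.17) did not pass 1.5-fold. MiR-199a-5p stood at -0.39 and the feature for miR-199a-3p and miR-199b-3p at -0.23. MiR-214-3p, above the floor on the old CR array only, had signals of 1.02 and 1.11.

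The miR-15 family holds heart muscle cells out of the cell cycle after birth. Its list, which also took in other arms of the hairpins, had 9 members and no call, and 4 above the floor with a median of 0.01. One of the 4, miR-503-3p (-0.03), has another seed, and the 3 with the seed AGCAGCA had a median of 0.05. MiR-16-5p stood at 8.21 and 7.39 (-0.15), miR-195a-5p at 3.46 and 3.59 (0.05) and miR-15a-5p at 4.29 and 4.66 (0.12). On the AL arrays miR-195a-5p stood at 1.40 and 3.66, a log2 ratio of 1.38. In the miR-17-92 clusters, known for driving growth and for falling in aged cells, 3 of 18 members were above the floor: miR-19a-3p (1.48 and 1.04, -0.50), miR-19b-3p (2.63 and 2.51, -0.07) and miR-106b-5p (1.55 and 1.73, 0.16). MiR-19a-3p and miR-19b-3p differ by U11C alone. The 2 clusters of miR-23, miR-24 and miR-27, which act on vessel growth and lipid metabolism, had 10 members, with 5 above the floor, a median of -0.35 and no call there. MiR-23a-3p was just outside the threshold at 15.1 and 10.1 (-0.58), and its neighbours at chr8:84208527-84208896 (plus strand), miR-24-3p (15.1 and 13.2, -0.20) and miR-27a-3p (7.11 and 6.43, -0.15), were nearer to 0.

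The list of ageing and senescence miRNAs had 10 members and 6 above the floor, with a median of -0.12 and 1 call, that of miR-21a-5p. MiR-22-3p, which is abundant in heart muscle and acts on hypertrophy and autophagy, stood at 30.3 and 20.8 (-0.54), and its other arm miR-22-5p at 1.78 and 1.81 (0.02). MiR-34a-5p, a p53 target that rises in aged mouse heart and represses Ppp1r10, stood at 1.98 and 1.75 (-0.18). MiR-34b-3p, also above the floor on both arrays, had a log2 ratio of -0.12 and no call. The other forms of these hairpins, miR-34b-5p, miR-34c-5p and miR-34c-3p, were below the floor on the middle-aged CR array and higher on the old CR array. MiR-34b-5p was at 0.309 and 1.28 (2.05), miR-34c-5p at 0.413 and 1.15 (1.47) and miR-34c-3p at 0.518 and 1.03 (0.99). On the old AL array the 3 stood at 0.225, 0.400 and 0.974, so the 5p forms passed the floor on the old CR array alone of the arrays at 22 months. Such ratios depend on the weak middle-aged signal: miR-34b-5p was 388 steps against 1675.

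**Figure D3:**
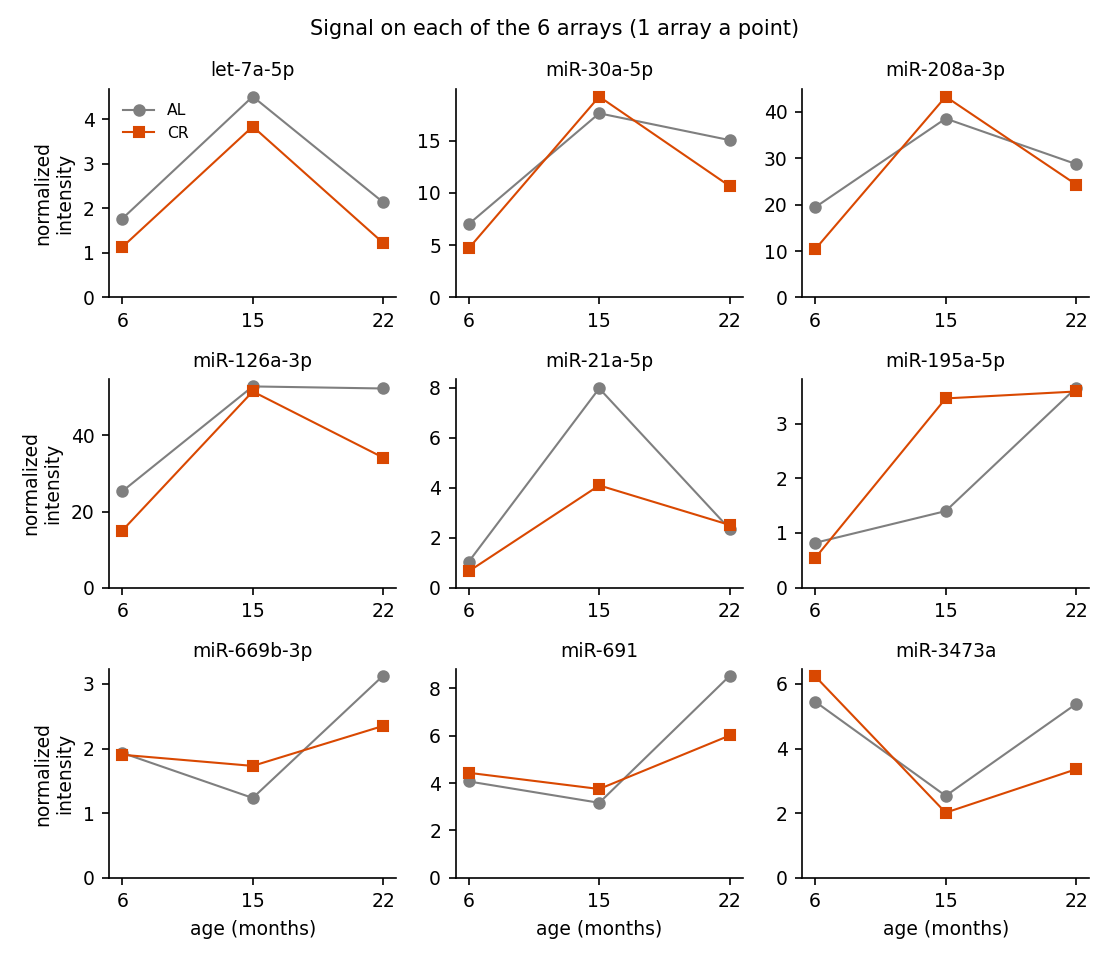
Signal (normalized intensity, axes from 0) of 9 miRNAs against age in months on the 6 arrays, with grey circles for AL and orange squares for CR; each point is 1 array of pooled tissue and has no error bar. Signals of let-7a-5p, miR-30a-5p and miR-208a-3p were highest at 15 months and lower at 22 months on both diets, while miR-669b-3p, miR-691 and miR-3473a were higher at 22 than at 15 months on both.

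Higher signals on the old CR array ran through the miR-297, miR-466, miR-467 and miR-669 group, a rodent-specific expansion of near-identical hairpins, most of them in an intron of the polycomb gene Sfmbt2. Of 71 features 59 were members, and all 59 had ratios above 0, with 23 called higher and none lower and a median of 0.55, beside 24.5% called higher and a median of 0.05 over all 681 members. Most of these signals were weak: 13 were above the floor on both arrays, with log2 ratios of 0.08 to 0.54, a median of 0.36 and no call at 1.5-fold, against a median of -0.30 for all 141. The largest of the 13 were miR-467f (1.503 and 2.19, 0.54), miR-467a-3p (1.33 and 1.86, 0.48), miR-669n (1.83 and 2.49, 0.44) and miR-669b-3p (1.73 and 2.35, 0.44). MiR-466i-5p had the brightest signals, at 2.81 and 3.73 (0.41). Summed over the 42 with a value on all 6 arrays, the signal was 44.2 on the middle-aged CR array and 58.4 on the old CR array, beside 37.8 and 74.7 on the AL arrays and 61.7 and 72.4 on the young AL and CR arrays. The 15-month arrays were thus the lowest at each diet. RefSeq places miR-669n on chromosome 3 and miR-467f on chromosome 11, outside the Sfmbt2 gene, and since members of the group hold similar repeats, they are uncertain as separate measurements.

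MiRNAs called higher above the floor on both arrays were only 4, and little is known of their function. MiR-3473a stood at 2.02 on the middle-aged CR array and 3.36 on the old CR array (log2 ratio 0.74). Signals of miR-3473b were 1.44 and 2.35 (0.70). The 2 share a stretch of 16 bases, UGGAGAGAUGGCUCAG, found in no other of the 547 matched sequences. On the AL arrays miR-3473a was at 2.54 and 5.38, and on the young AL and CR arrays at 5.45 and 6.24, so the 15-month arrays were again the lowest. MiR-691 stood at 3.75 and 6.01 (0.68), with 3.17 and 8.54 on the AL arrays. MiR-300-5p, of the imprinted Dlk1-Dio3 region (chr12:109724318-109724339), stood at 1.78 and 2.85 (0.68). MiR-709 and miR-690, chosen after their values were seen, were the brightest miRNAs with ratios above 0, at 8.72 and 12.7 (0.54) and at 11.6 and 13.6 (0.23).

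Genes of germ cells, stem cells and the imprinted region are usually silent or low in adult heart. Their counts stand beside 24.5% called higher and 17.5% called lower over all 681 members. From the X-linked testis cluster 27 of 36 features were members, 14 called higher and 3 lower with a median of 0.62, but just 2 were above the floor. MiR-463-3p stood at 6.73 and 3.59 (1.88-fold lower, -0.91) and miR-883a-5p at 3.07 and 3.49 (0.18), in the opposite direction. Among the embryonic stem cell clusters 13 were members, 6 higher and 5 lower, and the 2 above the floor were miR-290a-5p (6.25 and 3.77, -0.73) and miR-294-5p (3.60 and 2.60, -0.47). The Dlk1-Dio3 cluster, which makes many miRNAs from the maternal chromosome, had 48 members of 99 features, 13 higher and 10 lower with a median of 0.17, and of the 6 above the floor miR-300-5p was called higher and miR-673-3p lower (1.90 and 1.07, -0.83).

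The remaining large differences were those of single miRNAs. MiR-181a-5p, which in mice tunes T cell signalling and mitochondrial transcripts, stood at 1.93 and 1.05 (-0.88). MiR-767 was at 3.98 and 2.22 (-0.84), miR-1264-3p at 3.24 and 1.82 (-0.83) and miR-3968 at 5.22 and 3.02 (-0.79). MiR-767 and miR-1264-3p lie on the X chromosome, at chrX:72590050-72590070 and chrX:147010655-147010676. Of the bright unlisted miRNAs, miR-5100 stood at 45.8 and 31.6 (-0.53), miR-3963 at 39.4 and 28.2 (-0.48) and miR-491-3p at 27.2 and 23.1 (-0.24). MiR-5100 and miR-3968 share CGAAUCCCA, which occurs in no other matched sequence (0.366% of 547 hold it).
miR-5100: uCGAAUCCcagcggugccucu
miR-3968: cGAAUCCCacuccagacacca

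A list of miRNAs that the study itself picked on these samples, which is therefore no independent evidence, had 39 members with 11 higher and 12 lower, beside 24.5% and 17.5% over all members. Above the floor were 6, with a median of -0.39: miR-30d-5p and miR-130a-3p (2.93 and 1.94, -0.59) were called lower, and miR-19a-3p, miR-24-3p, miR-195a-5p and miR-138-2-3p (2.88 and 2.37, -0.28) were not.

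The same interval on the AL diet shares no array with the CR comparison. On AL, 419 members had a value on both arrays, 170 of them higher at 22 months (40.6%) and 91 lower (21.7%). Over the 141 miRNAs above the floor on both CR arrays, the median was -0.06 on AL with an SD of 0.90, and the log2 ratios on the 2 diets had a Pearson r of 0.53 and a Spearman rho of 0.55, a description across miRNAs that share probes. Of the 36 lower on CR, 17 were also lower on AL, 19 were within 1.5-fold and none was higher, while among all these 141 miRNAs 38 were lower on AL (26.95%) and 29 higher (20.6%). Of the 4 higher on CR, miR-3473a and miR-691 were also higher on AL and 2 were within. Among 109 miRNAs above the floor on all 4 arrays, 77 had the same sign on both diets and 32 the opposite one, of which none was called on both. In its spike-in pattern the middle-aged AL array stood apart from the other 3 and with the young arrays. Its r was 0.980 with the young AL array but 0.910 with the old AL array. Across 415 miRNAs its r was 0.856 with the middle-aged CR array, 0.835 with young AL and 0.815 with old AL. On it 421 miRNA features had a value, against 695 to 741 on the other 3 and 586 and 644 on the young AL and CR arrays. The part of this in the AL ratios was not tested.

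Medians of the groups on the 2 diets are given side by side, with no test of the difference. For the muscle list the medians above the floor were -0.60 on CR and -0.11 on AL, for the miR-30 family -0.51 and 0.05, for the let-7 family -0.61 and -0.25, and for the lipid and insulin list -0.60 and -0.86. For miR-23, miR-24 and miR-27 they were -0.35 and 0.30. The miR-466, miR-467 and miR-669 group was above 0 on both, at 0.36 and 0.91. MiR-24-3p was the clearest single case, with 15.1 and 13.2 on the CR arrays and 4.99 and 18.9 on the AL arrays. Thus the 15-month AL signal alone stood out among these 4.

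**Figure D4:**
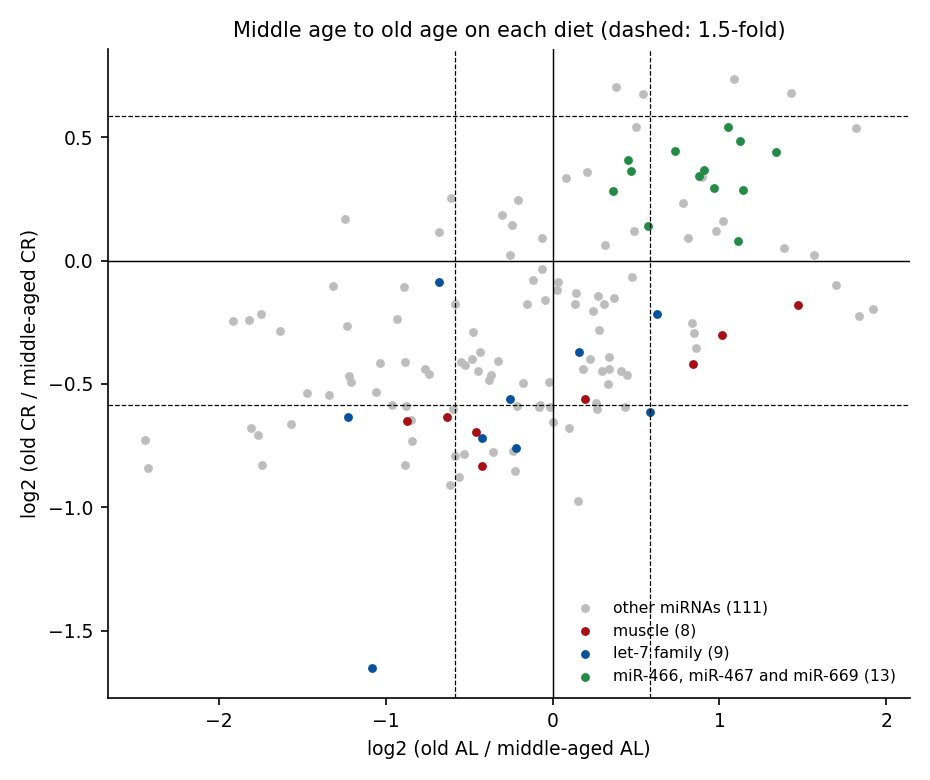
Log2 ratio of old over middle-aged on CR against that on AL for the 141 miRNAs above the floor on both CR arrays, 1 point a miRNA, with muscle, let-7 and miR-466, miR-467 and miR-669 members in colour and dashed lines at 1.5-fold. The 13 members of the last group lie above 0 on both diets, let-7a-5p is lowest on CR (-1.65, and -1.08 on AL), and the 8 muscle miRNAs are below 0 on CR but spread from -0.87 to 1.47 on AL.

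The number of calls depended on how the arrays were scaled to each other. Of the 36 lower calls above the floor, 12 were kept after quantile normalization, 12 after cyclic loess, 36 with each array divided by its median and 10 with the median of all spike-ins. Scaling by the mean log2 ratio of the bright spike-ins kept 20, and scaling by that of the small RNA controls above the floor kept 17. Scaling by all spike-ins moved the median of all members up by 0.20, scaling by the small RNA controls up by 0.13, and dividing by the array median changed it by -0.13. Among miRNAs above the floor on both arrays, those called lower under all 7 scalings were let-7a-5p, miR-199b-5p, miR-463-3p, miR-181a-5p, miR-767, miR-1264-3p and miR-673-3p. The one called higher there under all 7 was miR-3473a. Which miRNAs counted as above the floor was held fixed under every scaling. Among those lower, let-7a-5p, miR-199b-5p, miR-181a-5p and miR-673-3p had old CR signals between the floors of the 2 arrays (0.960 and 1.29). A rise of the reverse kind would not have passed the floor on both arrays. Of the named miRNAs above the floor on 1 array, miR-34b-5p, miR-34c-5p, miR-34c-3p, miR-541-3p, miR-665-3p and miR-465b-5p kept a higher call under all 7. All of these passed the floor only on the old CR array, where they were higher. The rule by which they were named thus favoured a rise, and the kept calls are no separate support for it. Medians above the floor kept their sign under all 7 for the muscle, let-7, miR-30, miR-26, miR-125 and miR-99, fibrosis, metabolism and miR-466, miR-467 and miR-669 lists. Those of the endothelial list and of miR-23, miR-24 and miR-27 turned above 0 after quantile and cyclic loess normalization, and that of the miR-15 family turned below 0 when each array was divided by its median. The sign of the median also turned for the ageing and senescence list (4 of 7 scalings), the miR-17-92 clusters (5), the Dlk1-Dio3 cluster (2), the white cell list (1) and the miR-34 family (1).

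**Figure D5:**
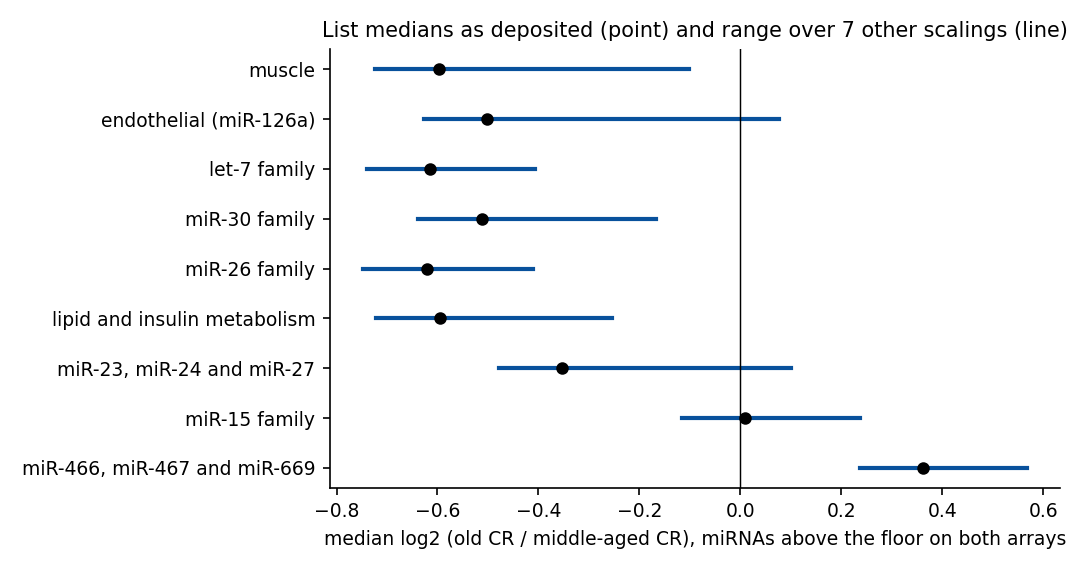
Median log2 ratio of old CR over middle-aged CR for miRNAs above the floor on both arrays in 9 lists, as deposited (point) and as the range over 7 other scalings of the 2 arrays (line). The let-7 median stays between -0.74 and -0.41 and that of the miR-466, miR-467 and miR-669 group between 0.24 and 0.57, while the muscle median reaches -0.10 and the endothelial one crosses 0 to 0.08.

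The 2 arms of a hairpin and the base composition were looked at last. In 6 hairpins both arms were above the floor on both arrays; the median absolute difference between the arms' log2 ratios was 0.17, and 5 of 6 had the same sign, with miR-22 as the exception. Over all 143 hairpins with both arms among the members, the median difference was 0.57 and 86 had the same sign. GC content of the mature sequence had an r of 0.06 with the log2 ratio over the 105 matched miRNAs above the floor, and -0.18 over all 547 matched members.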

How the data were processed

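For each pool the authors labelled 1 µg of total RNA with the dye Hy3 for a miRCURY LNA array, which was scanned and read with GenePix Pro. The deposited values are normalized intensities; how background was corrected and how arrays were normalized stays unnamed, not given in the sources used here. Every intensity was a whole multiple of 1 step per array, within 0.02 of a step, with 1255 steps per unit on the middle-aged CR array and 1312 on the old CR array, a log2 difference of 0.06 between the factors. The AL columns are named as controls in the matrix. A second table of values was identical in 21204 of 21204 cells, for 3534 features. Rows of the same ID were averaged.

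With 1 array a group there was no test and no error, and the number of arrays limits the precision. Ratios of old CR over middle-aged CR were called at 1.5-fold, the threshold of the study's methods. The detection floor was the 95th percentile of the viral miRNA features with a value. Named are the 10 brightest members, the 10 largest rises and falls past 1.5-fold above the floor on both arrays (only 4 rises existed), the 5 brightest above the floor on 1 array with no value on the other (there were none), members of 23 lists with at least 1 array above the floor, and miRNAs named in the paper above it; any other name is marked as such. The members and lists were chosen with earlier results of these data known. The hypoxia list had 2 members, neither above the floor. Unnamed features were left out. Alternatives were floors, quantile and cyclic loess normalization, array median, spike-in median, added viral median, features naming 1 miRNA, the value table and a 2-fold call; scaling by bright spike-ins and by small RNA controls was chosen after seeing the data. Seeds and loci came from RefSeq, GRCm38.p6; hairpins within 10000 bases on 1 strand were taken as neighbours. Python 3.11.15, pandas 2.3.3, R 4.3.3 and limma 3.58.1 (cyclic loess, 3 iterations) were used, and the scripts were tested on simulated data.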

Additional observations from a re-analysis of the deposited data

Results flagged for a closer look

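Among named miRNAs called on CR, 5 had a log2 ratio of old over middle-aged of the opposite sign on AL. They were miR-125b-5p (-0.68 on CR and 0.10 on AL), the feature for miR-101a-3p and miR-101c (-0.652 and 0.00282), let-7b-5p (-0.614 and 0.581), miR-143-3p (-0.603 and 0.264) and miR-130a-3p (-0.593 and 0.437). None was called on AL, and with 1 array a group the differences between diets were not tested. Unnamed features, which no comparison used, were above the detection floor in 214 cases on the middle-aged CR array and in 284 cases on the old CR array, whose floor was the lower one.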

How the results depend on the processing

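Counts of calls over the members, 167 higher and 119 lower as deposited, were 16 and 37 with at least 1 array above the floor, 4 and 36 with both above it, 34 and 56 with the viral median added to every value, 95 and 39 at 2-fold, and 226 and 71 after spike-in median scaling. The split of higher against lower calls turned when each array was divided by its median (131 and 160), came near to even after quantile (127 and 124) and cyclic loess normalization (127 and 126), and moved further to higher calls by bright spike-ins (197 and 88) and small RNA controls (206 and 83). The median log2 ratio of all members, 0.05 as deposited, was -0.17 with at least 1 array above the floor, -0.30 with both, -0.0737 by the array median, 0.26 by the spike-in median and 0.19 by small RNA controls. Features naming 1 miRNA and the value table changed no call count by 1.5 times. The medians of the miR-34 family and of the X-linked testis cluster turned from above to below 0 with both arrays above the floor, at -0.15 and -0.36, where fewer features remained. The ratio of miR-126a-3p turned to 0.11 after quantile and 0.17 after cyclic loess normalization, that of miR-133b-3p to 0.11 and 0.0538, and that of miR-143-3p to 0.0330 after cyclic loess; the cause was not tested. Of 1080 values of named miRNAs under alternatives, 848 kept both the sign and the side of the threshold, 114 lost the call and 49 gained one. The sign turned in 69, of which 5 were of called miRNAs and 64 of miRNAs within 1.5-fold. For each named miRNA, 1 of these alternatives was the second table of values, identical to the first. It kept every sign and call by construction, so the 848 overstates how stable the values were under changed processing. No paired analysis was possible because each group was 1 array, and for the same reason no replicate could be left out. Signal over the floor limits the comparison: 487 of 681 members were below it on both arrays.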
